A study of Mus musculus with 28 samples.

Results

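The genes described here are the heat shock proteins, their J-domain partners and the subunits of the cytosolic chaperonin, followed through 4 populations of sorted mouse CD4 T cells. They were taken by symbol alone, as every gene whose name begins with Hspa, Hspb, Hspd, Hspe, Hsph or Hsp90, with Dnaja, Dnajb or Dnajc and a digit, or with Cct2 to Cct8. This rule found 83 of the 23420 gene symbols in the count tables, and 75 of the 83 had enough counts to be tested. RNA came from male mice aged 6 to 8 weeks in which the Foxp3 locus carried a green fluorescent protein reporter. In the Foxp3-deltaCNS3-gfp animals (KO) this allele also lacked conserved noncoding sequence 3, an enhancer of Foxp3, the lineage factor of regulatory T (Treg) cells, and in the Foxp3-gfp animals (WT) it was otherwise intact. For each of aTreg and rTreg cells from spleen, Treg cells from thymus and non-Treg CD4 single-positive (CD4SP) cells from thymus there were 4 KO and 3 WT libraries, 28 in 8 groups. The labels do not expand r and a, give no sort gates, and speak of a pair of littermates sorted together, so nothing states that each library was its own animal and p-values measure the spread between these libraries.

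Molecular chaperones hold or fold other proteins. Hsp70 proteins bind exposed hydrophobic stretches in a cycle that J proteins start, by stimulating the Hsp70 ATPase, and that Hsp110 and other exchange partners finish; Hsp90 takes over kinases and receptors, and the ring-shaped TRiC chaperonin, built from Cct subunits, folds actin and tubulin. Separate sets serve the endoplasmic reticulum (ER) and the mitochondrion, and the stress-inducible Hspa1a and Hspa1b are switched on by heat shock factor when proteins unfold, which also happens when tissue is dissociated and cells are sorted.

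The promoter stretches printed here show the control elements for which these genes are known, since the inducible Hsp70 pair and the ER chaperones carry the main results. The heat shock element was searched as GAANNTTC or TTCNNGAA on both strands, and the ER stress element as CCAAT and CCACG separated by 9 bases, on both strands, in RefSeq windows of 300 bases on GRCm38.p6 (250 before and 50 after the start). Capitals mark the matches.
Hspa1a (chr17:34972177-34972376, minus strand): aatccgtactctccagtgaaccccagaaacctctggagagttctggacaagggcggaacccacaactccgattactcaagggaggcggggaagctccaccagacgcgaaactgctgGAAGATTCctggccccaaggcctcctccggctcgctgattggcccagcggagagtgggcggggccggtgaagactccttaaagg
Hspa1b (chr17:34959259-34959458, minus strand): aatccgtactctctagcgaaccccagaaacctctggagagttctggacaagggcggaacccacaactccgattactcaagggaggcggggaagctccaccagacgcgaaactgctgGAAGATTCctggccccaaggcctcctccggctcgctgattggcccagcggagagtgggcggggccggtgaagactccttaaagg
Hspe1 (chr1:55087998-55088127, plus strand): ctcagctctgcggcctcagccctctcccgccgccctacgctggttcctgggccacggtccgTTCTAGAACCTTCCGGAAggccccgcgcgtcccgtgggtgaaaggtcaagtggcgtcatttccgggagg
Hsph1 (chr5:149636347-149636436, minus strand): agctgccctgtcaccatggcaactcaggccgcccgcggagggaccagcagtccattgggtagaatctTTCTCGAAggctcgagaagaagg
Hspa5 (chr2:34771890-34772069, plus strand): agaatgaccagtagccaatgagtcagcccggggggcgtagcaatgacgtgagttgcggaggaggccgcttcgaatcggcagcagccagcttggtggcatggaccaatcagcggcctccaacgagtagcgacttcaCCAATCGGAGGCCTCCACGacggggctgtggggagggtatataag
The Hspa1a and Hspa1b stretches were identical at 198 of 200 bases and shared a heat shock element that began 104 bases before the start. Hspe1 held 3 overlapping matches, TTCTAGAA, GAACCTTC and TTCCGGAA, in its capitals. Hsph1 held 3 in its window, of which TTCTCGAA lies in the printed stretch and the other two lie after the start. The ER stress element of Hspa5 began 65 bases before the start. One or other form of the heat shock element was present in 20 of the 68 members in the promoter table and in 15.1% of all 32851 windows, and the ER stress element in 3 members (Hspa5, Hsp90b1 and Dnajc3) and in 0.119% of windows. Members were counted by gene, with a match in any of their windows, and some had several windows. The member counts and the shares of windows are therefore not on the same footing. A match describes the letters only.

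Depth was 22037995 to 40754492 gene counts per library, of which the members took 0.936 to 1.17%. Levels are given as CPM, counts scaled to library size with TMM factors, and tests are edgeR's quasi-likelihood test over 13338 genes with Benjamini-Hochberg adjusted p, called below 0.05. Foxp3 stood at 492 to 550 CPM in KO and 587 to 654 CPM in WT aTreg cells, 508 to 602 and 579 to 663 in rTreg cells, 446 to 614 and 642 to 671 in thymic Treg cells, and 1.07 to 1.91 and 3.23 to 3.49 in CD4SP cells; its counted exons do not report on the deleted enhancer. Some libraries had higher levels of markers of other cells. KO CD4SP library 2 had 37.3 CPM summed over 9 B cell markers against a group median of 8.31. It also had 133 CPM of Il2ra, a Treg marker, against 17.3 to 21.9 in the other KO CD4SP libraries and 7.77 to 11.6 in WT. Foxp3 was also highest in library 2 among the KO CD4SP libraries, at 1.91 CPM, but lay below the 3.23 to 3.49 CPM of WT. The Treg markers Ikzf2 and Ctla4 were highest there too. Ikzf2 had 148 CPM against 74.3 to 93.4 CPM in the other KO CD4SP libraries, and Ctla4 43.9 CPM against 22.3 to 36.1 CPM. What raised Il2ra was not tested. The KO thymic Treg libraries had 409 to 924 CPM summed over myeloid markers, highest in libraries 1 and 2, against 272 to 372 in WT. In bulk RNA, fewer cells of a type and less RNA per cell cannot be told apart.

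Per kilobase of annotated exon, averaged over all libraries, the cytosolic Hsp90 Hsp90ab1 was the most abundant member at 570 CPM per kb. Next came Cct5 (275), Hspa5, the ER Hsp70 also called BiP (223), the constitutive cytosolic Hsp70 Hspa8 (214), and Cct8 (181). The inducible Hspa1a reached 19.0 CPM per kb in KO aTreg cells, its highest group mean, where Hspa8 stood at 210. The 8 members that were not tested, Dnajb8, Dnajc22, Dnajc5b, Dnajc5g, Hspb2, Hspb3, Hspb7 and Hspb8, did not exceed 0.221 CPM in any library, and Dnajb8 and Hspb3 had no count at all. Of the tested members, 7 averaged under 1 CPM (Cct6b, Cct8l1, Dnajb3, Hspa12b, Hspa1l, Hspb1 and Hspb9). The highest group mean of Hspa1a was 74.4 times its lowest, that of Hspa1b 23.6 times and that of Dnajb13 15.3 times. The ratio was 7.93 for Hspa2, 5.02 for Dnaja4, 3.65 for Dnajc12 and 2.39 for Hspb11.

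The inducible Hsp70 genes varied widely between libraries. Hspa1a and Hspa1b are neighbouring copies on chromosome 17 (Hspa1a at 34969190 to 34972156 and Hspa1b at 34956436 to 34959238, minus strand, GRCm38), so reads that fit both were left uncounted and the split between them is uncertain. Hspa1a also shares exon bases with Gm20481 on the other strand. In aTreg cells Hspa1a had 29.0, 15.99, 73.1 and 108 CPM in KO libraries 1 to 4, against 3.75, 0.626 and 8.64 CPM in WT libraries 1 to 3. In rTreg cells it had 14.0, 9.12, 43.6 and 93.2 CPM in KO, against 1.39, 0 and 6.86 CPM in WT. In thymic Treg cells it had 2.48, 2.40, 7.10 and 11.5 CPM in KO, against 0.483, 0.0333 and 1.76 CPM in WT. All KO libraries lay above all WT libraries in these 3 populations. In CD4SP cells Hspa1a had 3.68, 7.54, 17.1 and 37.0 CPM in KO, against 0.111, 0.101 and 4.37 CPM in WT, and there KO library 1 lay below WT library 3.

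Hspa1b, the second copy, followed the same order at lower levels in the spleen. It had 11.1, 6.98, 19.3 and 37.3 CPM in KO aTreg cells, against 1.38, 0.405 and 4.92 CPM in WT aTreg cells. It had 5.46, 3.75, 17.2 and 31.6 CPM in KO rTreg cells, against 0.842, 0.308 and 3.16 CPM in WT rTreg cells. In KO thymic Treg cells it had 3.13, 4.04, 5.55 and 9.09 CPM, against 0.254, 0.133 and 1.99 CPM in WT thymic Treg cells. KO libraries again lay above all WT libraries in these 3 populations. In CD4SP cells the genotypes overlapped, with 4.82, 5.59, 14.3 and 21.9 CPM in KO, against 1.08, 0.277 and 5.07 CPM in WT. Library 4 was the highest and library 3 the next in KO, and library 3 the highest and library 2 the lowest in WT, for both genes in all 4 populations.

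**Figure D1:**
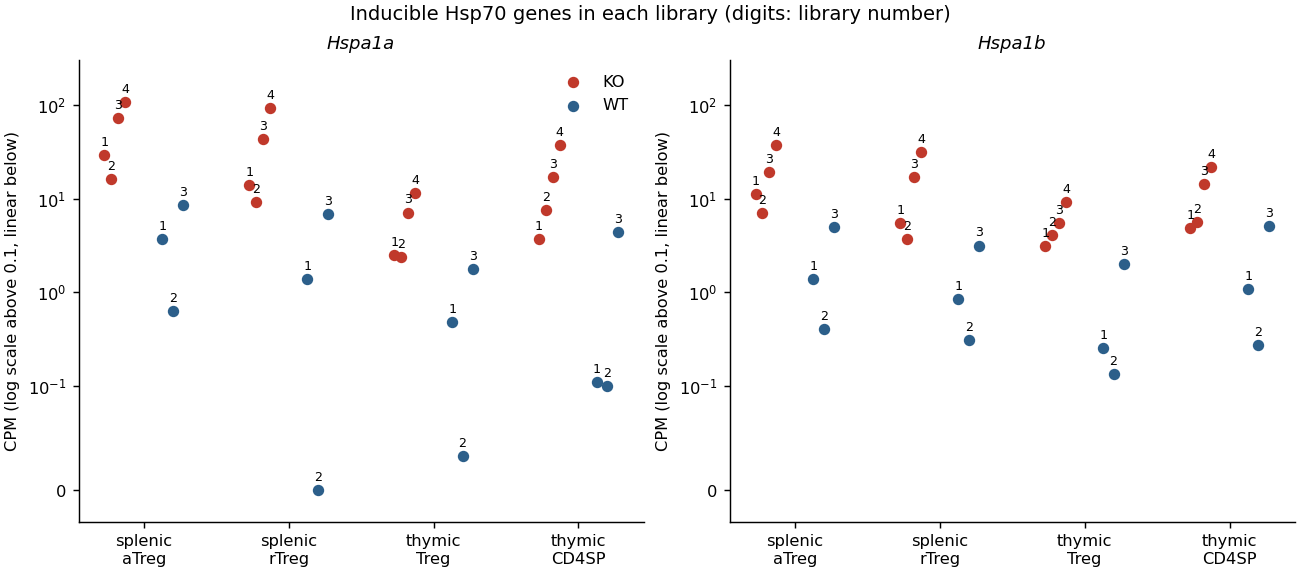
Hspa1a and Hspa1b in each library (CPM, log axis above 0.1 and linear below it), by population, with KO in red to the left of WT in blue and the library number above each point. The 4 KO libraries of aTreg cells lie between 15.99 and 108 CPM of Hspa1a and the 3 WT libraries between 0.626 and 8.64, and KO library 4 is the top point in each population.

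Libraries of one genotype spread widely, and in the fit over all 28 libraries, which has no block, neither gene passed in any population. The log2 fold change of KO over WT for Hspa1a was 3.69 (SE 1.04, adjusted p = 0.409) in aTreg cells and 3.80 (SE 1.07, adjusted p = 0.307) in rTreg cells. It was 2.87 (SE 1.24, adjusted p = 0.139) in thymic Treg cells and 3.37 (SE 1.11, adjusted p = 0.465) in CD4SP cells by the same edgeR test. For Hspa1b the log2 fold changes were 3.04, 3.29, 2.72 and 2.43 in aTreg, rTreg, thymic Treg and CD4SP cells, with edgeR adjusted p of 0.426, 0.314, 0.0762 and 0.542. The calls of this pair depended on the fit. In thymic Treg cells, with only those 7 libraries in the edgeR model both genes passed (adjusted p = 0.0357 for Hspa1a and 0.0276 for Hspa1b), and Hspa1b also passed by DESeq2 (adjusted p = 0.0448) and with no filter on low counts (adjusted p = 0.0403). Single libraries moved the sizes: the Hspa1a log2 fold change lay between 3.16 and 4.65 in aTreg, 2.96 and 5.81 in rTreg, 2.28 and 4.36 in thymic Treg and 2.57 and 7.24 in CD4SP cells, lowest without KO library 4 and highest without WT library 3 each time. That of Hspa1b lay between 2.46 and 4.35, 2.56 and 4.64, 2.28 and 4.74, and 1.89 and 4.22 in the same order of populations, again highest without WT library 3, where it passed in thymic Treg cells (edgeR adjusted p = 0.0421). The KO effects on these genes did not differ detectably between populations, with differences of log2 fold changes between -0.50 and 0.93 and adjusted p of at least 0.887.

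Immediate-early genes, known to respond quickly to the handling of cells, were measured beside the inducible Hsp70 pair. Fos, an immediate-early transcription factor, had 294, 275, 483 and 589 CPM in KO aTreg libraries 1 to 4, against 228, 208 and 250 CPM in WT. In rTreg cells Fos had 395, 362, 677 and 813 CPM in KO, against 312, 288 and 295 CPM in WT. In thymic Treg cells Fos had 19.1, 17.8, 29.8 and 48.7 CPM in KO, against 14.3, 10.7 and 17.6 CPM in WT. KO library 4 was the highest and library 3 the next for Fos in all 4 populations, as for the Hsp70 pair, but other genes of the list did not keep this order, and Fos was named after its values were seen. Jun, the partner of Fos, had 207, 170, 250 and 235 CPM in KO and 137, 111 and 140 CPM in WT aTreg cells, and 49.4, 55.4, 78.9 and 78.5 CPM in KO and 39.8, 36.0 and 49.1 CPM in WT thymic Treg cells, so that library 3 was above library 4 in both. Dusp1, a phosphatase of the same early response, was lowest in library 3 among the KO rTreg libraries, at 134 CPM. In CD4SP cells Jun had 19.95, 19.5, 32.2 and 38.3 CPM in KO, against 8.72, 6.28 and 15.6 CPM in WT, with no overlap, while Fos overlapped. Egr1, another immediate-early gene, was lower in KO than in WT thymic Treg cells, with no overlap. It had 50.01, 52.9, 61.7 and 62.2 CPM in KO, against 69.5, 69.9 and 68.97 CPM in WT. In each other population the KO and WT libraries of Egr1 overlapped. Summed over 18 immediate-early genes, levels were 2980 to 3614 CPM in KO and 2642 to 2887 CPM in WT aTreg cells, and 3395 to 4623 and 3169 to 3405 CPM in rTreg cells. The sums were apart in aTreg cells and overlapped narrowly in rTreg cells. They also overlapped in the thymus, at 1124 to 1323 CPM in KO and 1243 to 1275 CPM in WT thymic Treg cells and 1034 to 1349 and 1208 to 1292 CPM in CD4SP cells. With this summed level as a covariate the log2 fold change of Hspa1a was 1.36 in rTreg and 1.53 in aTreg cells, and that of Hspa1b 1.34 and 1.30 (edgeR adjusted p of 0.604 to 0.671), while in thymic Treg cells the values were 2.79 and 2.76, with Hspa1b past the test (adjusted p = 0.0327). What set the level of the inducible Hsp70 genes was not tested.

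Other members with a heat shock element or a known stress response did not pass between KO and WT. Dnajb1, the heat-inducible J partner of Hsp70, had log2 fold changes of KO over WT of 0.36, 0.31, -0.13 and -0.18 in aTreg, rTreg, thymic Treg and CD4SP cells. Hsph1, an Hsp110 that releases nucleotide from Hsp70, had 52.3, 57.8, 93.3 and 78.2 CPM in KO aTreg cells, against 45.0, 71.9 and 72.1 CPM in WT aTreg cells. Its log2 fold changes were 0.16, 0.01, -0.03 and -0.28 in the same order of populations. Dnaja1, a cytosolic J protein, lay between -0.16 and -0.03, and Hspe1, the mitochondrial cochaperonin whose promoter is printed above, between -0.01 and 0.20. Hsp90aa1, the inducible Hsp90, lay between 0.13 and 0.23. Hspb1, whose window holds the element, had 1.03, 0.51, 3.28 and 1.61 in the same order of populations. Its levels were near the floor. In thymic Treg cells its means were 0.123 CPM in KO and 0.00848 CPM in WT, and the libraries did not overlap. None of these passed, and the KO and WT libraries of Dnajb1 and Hsph1 overlapped in each population.

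Setting KO against WT over all 75 tested members asks whether loss of the Foxp3 enhancer came with a shift in chaperone levels. In thymic Treg cells 5 members passed the test, 4 higher and 1 lower, which is 6.67% of the members beside 9.34% of all genes tested (4.21% higher and 5.13% lower). The members' median log2 fold change was 0.07, against 0.02 over all genes tested. Hspbp1, a nucleotide exchange partner of Hsp70, had 46.0, 45.7, 48.8 and 38.7 CPM in KO, against 31.3, 32.1 and 37.7 CPM in WT (44.8 ± 4.32 and 33.7 ± 3.51 CPM, SD, n = 4 and 3; log2 fold change 0.41, SE 0.09, edgeR adjusted p = 0.00601). Dnajc9, a J protein that also handles histones, had 168, 184, 170 and 146 CPM in KO, against 136, 137 and 139 CPM in WT (log2 fold change 0.28, edgeR adjusted p = 0.0197). For Dnajb13, a J protein known from cilia and flagella, KO libraries had 13.4, 15.4, 14.3 and 13.8 CPM, against 10.9, 9.42 and 8.32 CPM in WT (log2 fold change 0.57, edgeR adjusted p = 0.0199). Dnajc12, a J protein known as a partner of aromatic amino acid hydroxylases, had 27.9, 30.4, 27.0 and 23.8 CPM in KO, against 19.99, 20.7 and 22.6 CPM in WT (log2 fold change 0.37, edgeR adjusted p = 0.0418). The member that fell was Dnajc13, an endosomal J protein, with 41.9, 46.5, 40.6 and 45.9 CPM in KO, against 52.9, 51.3 and 49.5 CPM in WT (log2 fold change -0.23, edgeR adjusted p = 0.0192). The KO and WT libraries of these 5 members did not overlap.

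Of these 5 calls, Hspbp1 alone passed with each single thymic Treg library left out in turn. Without WT library 1 there were 2 called members (Hspbp1 and Dnajb13), and without WT library 2 there was 1. Without WT library 3 the adjusted p was 0.102 for Dnajb13 and 0.0558 for Dnajc12. Dnajc12 was also lost without KO library 1, 2 or 3 (0.0739 to 0.111), Dnajc13 without KO library 1 or 3 (0.0595 and 0.0685), and Dnajc9 without KO library 2 (0.0646). With only the thymic Treg libraries in the edgeR model, Dnajc12, Dnajc13 and Dnajc9 were not called (adjusted p = 0.0587, 0.0928 and 0.0683). Hspbp1 and Dnajb13 passed in that fit (0.0395 and 0.0294). Dnajc12 was also not called under library totals alone (0.0653) or with no filter on low counts (0.0821). Leaving out KO thymic Treg libraries 1 and 2 with KO CD4SP library 2, a check chosen after seeing the data, left Hspbp1 (log2 fold change 0.37, edgeR adjusted p = 0.0464). Reads falling in no gene made up 42.3 to 45.0% in KO and 46.3 to 49.3% in WT thymic Treg libraries. With that share as a covariate the edgeR adjusted p of the 5 lay between 0.610 and 0.841. The share did not overlap between the genotypes, so the 2 cannot be told apart in these cells and the loss of calls does not show which mattered. B cell markers summed to 51.8 to 56.9 CPM in KO and 36.3 to 38.6 CPM in WT, and 8 of 19 cell cycle genes were higher in KO thymic Treg cells. The part of these in the 5 calls was not tested.

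In the other 3 populations no member passed, beside 0.03% of all genes in aTreg cells (0.0225% higher and 0.0075% lower), 0.135% in rTreg cells (0.0825% and 0.0525%) and 0.195% in CD4SP cells (0.165% and 0.03%). At an unadjusted p under 0.05 there were 5, 5 and 4 members, and DESeq2 called 0 in each. The member with the smallest p in aTreg cells was Dnajc1, an ER membrane J protein, with 80.2, 82.3, 77.0 and 75.6 CPM in KO, against 62.8, 72.3 and 58.0 CPM in WT (log2 fold change 0.29, SE 0.07, edgeR adjusted p = 0.376). In rTreg cells the Hsp70 pair had the smallest p and was followed by Dnajc8, a J protein found with spliceosomes, at 207 ± 11.9 CPM in KO and 238 ± 27.6 CPM in WT (SD, n = 4 and 3; edgeR adjusted p = 0.649). In CD4SP cells it was Dnaja4, a cytosolic J protein, at 2.26 ± 0.53 CPM in KO and 3.36 ± 0.49 CPM in WT (edgeR adjusted p = 0.465). The constitutive chaperones did not pass: across the 4 populations the KO over WT log2 fold change of Hspa8 lay between -0.13 and 0.11, that of Hsp90ab1 between -0.09 and 0.14, Hspa5 between 0.03 and 0.21, Hsp90b1, the ER Hsp90, between 0.00 and 0.12, and Cct2 between -0.06 and 0.08. Hsp90aa1, the inducible cytosolic Hsp90, lay between 0.13 and 0.23, and Hspd1, the mitochondrial chaperonin Hsp60, between -0.26 and 0.08. The 0.21 of Hspa5 was in thymic Treg cells, where all its KO libraries lay above all WT libraries (889 ± 34.3 and 769 ± 67.2 CPM, SD, n = 4 and 3, edgeR adjusted p = 0.0730).

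**Figure D2:**
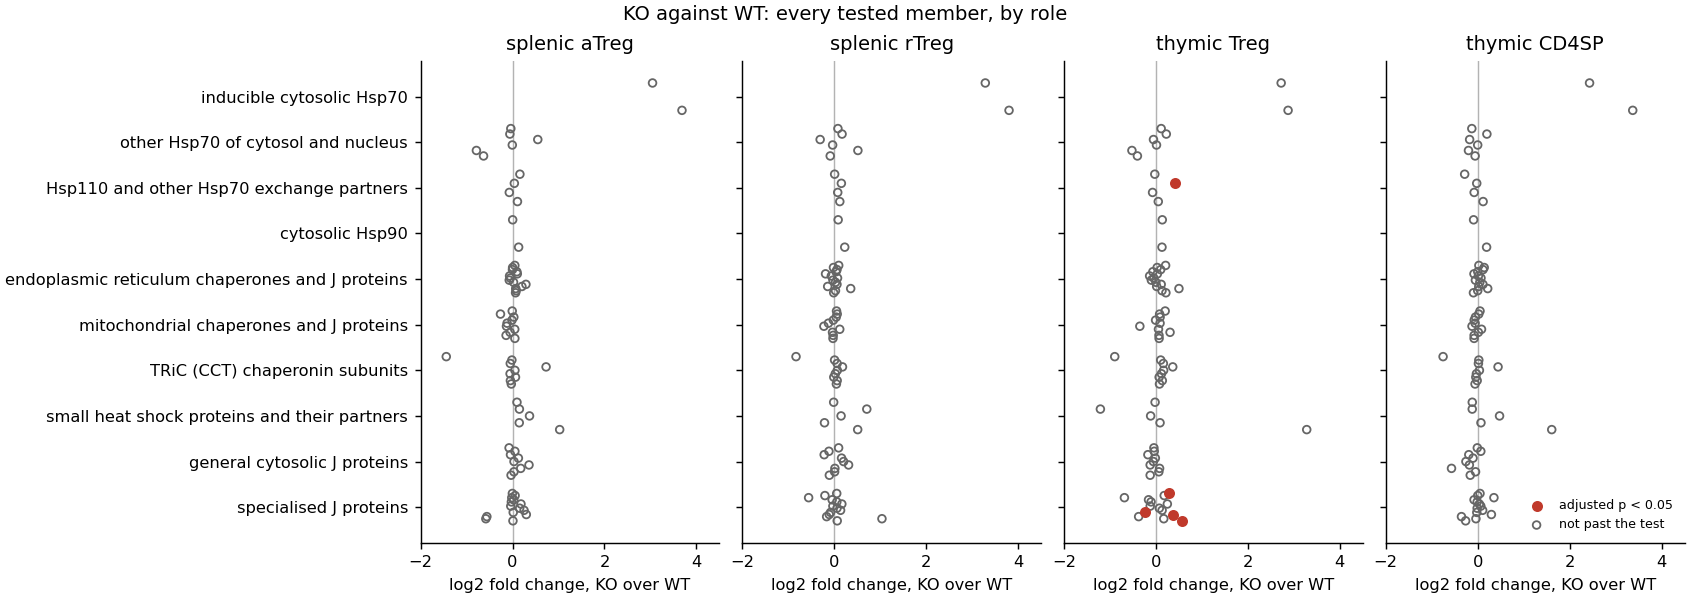
Log2 fold change of KO over WT for each of the 75 tested members, in 4 panels for the populations and in rows by role, with filled red points at an adjusted p under 0.05. The 5 filled points are in thymic Treg cells, and the inducible Hsp70 pair lies between 2.43 and 3.80 with no filled point.

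Tests of whether the KO effect differed between populations called 0 members in each of 3 comparisons. The background was 0.615% of genes for thymic Treg against CD4SP cells (0.315% above and 0.3% below 0), 0.03% for rTreg against thymic Treg cells (0.0075% above and 0.0225% below) and 0.0% for aTreg against rTreg cells. Unadjusted p fell under 0.05 for 7, 7 and 4 members, and DESeq2 called 2, 0 and 0. The smallest p belonged to Hspbp1 (difference of log2 fold changes 0.43, edgeR adjusted p = 0.118), Dnajb13 (0.83, 0.120) and Dnajb11, an ER J protein (0.31, 0.203), for thymic Treg against CD4SP cells. For rTreg against thymic Treg cells they were Dnajc8 (-0.38, edgeR adjusted p = 0.256), Dnajc12 (-0.48, 0.353) and Dnajb13 (-0.51, 0.462). For aTreg against rTreg cells they were Hspb11 (0.36), Dnajc12 (0.41) and Dnajc8 (0.26), none of them past the test. So the thymic Treg calls were not shown to differ from the effect in other cells.

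Of the related genes outside the rule, other parts of the cytosolic folding pathway (prefoldins, Hsp90 cochaperones, Bag proteins, heat shock factors and Tcp1, a TRiC subunit) had 3 of 32 tested genes called in KO thymic Treg cells, all higher, and 0 called in the other populations. The list of ER folding and unfolded protein response genes had 9 of 31 called in KO thymic Treg cells, 7 of them higher, and 0 elsewhere, and the mitochondrial list had 0 of 15 in any population. Of all genes tested, 9.34% were called in thymic Treg cells (4.21% higher and 5.13% lower) and 0.03 to 0.195% in the other populations. In thymic Treg cells the cytosolic count was thus near the share of all genes in either direction, the ER count above it and the mitochondrial count below it. The ER list summed to 4578 to 4857 CPM in KO and 4129 to 4255 CPM in WT thymic Treg cells. What raised it was not tested.

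The aTreg and rTreg cells of the spleen were compared within each genotype. Against rTreg cells, aTreg cells had more RNA of the ER chaperones Hspa5, Hsp90b1, Hspa13, Dnajc1 and Dnajb11, and less of Cct2, Cct5 and Dnajc7. In KO, 12 members were higher and 13 lower, or 33.3% of the 75 beside 41.6% of all genes tested (21.7% higher and 19.9% lower). In WT, 10 were higher and 12 lower, or 29.3% beside 37.9% (19.9% higher and 18.1% lower), and scaling by library totals alone gave 11 higher and 8 lower. In both genotypes 18 members were called, all in the same direction, which is 72% of the KO calls and 81.8% of the WT calls, against 73.5% and 80.7% over all genes tested. The share of members called lay below that of all genes in each genotype.

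Of the 14 ER members, 6 were higher and 0 lower in KO (all genes 21.7% and 19.9%), and 5 were higher and 1 lower in WT (all genes 19.9% and 18.1%). Their median log2 fold changes were 0.10 in KO and 0.11 in WT, and 6 of the 14 lay below 0 in each genotype. Hspa5 had 1195, 1207, 1281 and 1296 CPM in KO aTreg cells, against 858, 924, 944 and 992 CPM in KO rTreg cells (log2 fold change 0.42, SE 0.07, edgeR adjusted p = 1.59e-05). The WT libraries had 1125, 1294 and 1188 CPM in aTreg cells, against 774, 914 and 919 CPM in rTreg cells (log2 fold change 0.47, SE 0.08, edgeR adjusted p = 2.93e-05). Every aTreg library lay above every rTreg library in both genotypes. Hsp90b1, also called Grp94, had 496, 525, 586 and 534 CPM in KO aTreg cells, against 399, 429, 456 and 437 CPM in KO rTreg cells (log2 fold change 0.32, edgeR adjusted p = 0.000115), and 510, 552 and 545 CPM in WT aTreg cells, against 388, 424 and 426 CPM in WT rTreg cells (log2 fold change 0.38, edgeR adjusted p = 8.47e-05). Hspa13, a microsomal Hsp70, had 42.1, 50.9, 47.8 and 43.1 CPM in KO aTreg cells, against 31.8, 32.7, 26.3 and 31.0 CPM in KO rTreg cells, and 46.3, 46.6 and 44.9 CPM in WT aTreg cells, against 29.3, 31.1 and 32.0 CPM in WT rTreg cells. Its log2 fold changes were 0.59 in KO and 0.57 in WT (edgeR adjusted p = 2.81e-05 and 0.000255).

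The ER J proteins split. Dnajc1, which binds BiP and ribosomes at the ER membrane, had 80.2, 82.3, 77.0 and 75.6 CPM in KO aTreg cells, against 48.8, 50.4, 47.4 and 47.4 CPM in KO rTreg cells (log2 fold change 0.70, SE 0.07, edgeR adjusted p = 3.95e-09). In WT it had 62.8, 72.3 and 58.0 CPM in aTreg cells, against 47.7, 41.1 and 50.8 CPM in rTreg cells (log2 fold change 0.47, edgeR adjusted p = 3.1e-05); Mllt10, which shares exon bases with Dnajc1 on the other strand, fell by 0.27 in KO and by 0.26 in WT. Dnajb11, a BiP partner, rose by 0.31 in KO and 0.23 in WT on the log2 scale (edgeR adjusted p = 0.00138 and 0.034). Dnajb9 passed in KO, with overlapping libraries (34.8, 31.1, 36.0 and 28.5 CPM in aTreg cells, against 28.6, 24.1, 23.5 and 28.1 CPM in rTreg cells), and Dnajc25, at about 1 CPM, fell by 0.82 in WT (edgeR adjusted p = 0.0304). Dnajc3, the BiP cochaperone P58IPK, and Dnajc10, an ER disulfide reductase, did not pass in this comparison, except that Dnajc10 passed in KO with a block for library number (log2 fold change 0.17, edgeR adjusted p = 0.0369).

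Several TRiC subunits were lower in aTreg cells. All 9 tested Cct members had log2 fold changes below 0 in KO and 8 of 9 in WT, with medians of -0.24 in KO and -0.18 in WT. These 9 include Cct6b and Cct8l1, which stood under 1 CPM and whose direction carries little weight. In KO 4 passed and in WT 2, beside 19.9% of all genes called lower in KO and 18.1% in WT. The WT count is thus near the share of all genes. Cct2 had 277, 287, 317 and 323 CPM in KO aTreg cells, against 353, 356, 383 and 375 CPM in KO rTreg cells (log2 fold change -0.28, SE 0.06, edgeR adjusted p = 0.000512). The WT libraries had 269, 318 and 334 CPM in aTreg cells, against 337, 364 and 364 CPM in rTreg cells (log2 fold change -0.21, edgeR adjusted p = 0.0205). Cct5 had 590, 599, 690 and 691 CPM in KO aTreg cells, against 720, 786, 832 and 812 CPM in KO rTreg cells (edgeR adjusted p = 0.00247). The WT libraries of Cct5 overlapped, at 560, 717 and 723 CPM in aTreg cells, against 699, 809 and 815 CPM in rTreg cells (edgeR adjusted p = 0.0497). Cct7 and Cct3 also fell in KO (by 0.24 and 0.29 on the log2 scale, edgeR adjusted p = 0.00136 and 0.0132). The 4 KO calls held under library totals and DESeq2 size factors, but in WT no subunit passed under library totals and 1 under DESeq2 size factors, with the same sign of the median. Without WT aTreg library 1 the Cct2 adjusted p was 0.181, without WT rTreg library 2 it was 0.0671 and without rTreg library 3 0.0547.

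**Figure D3:**
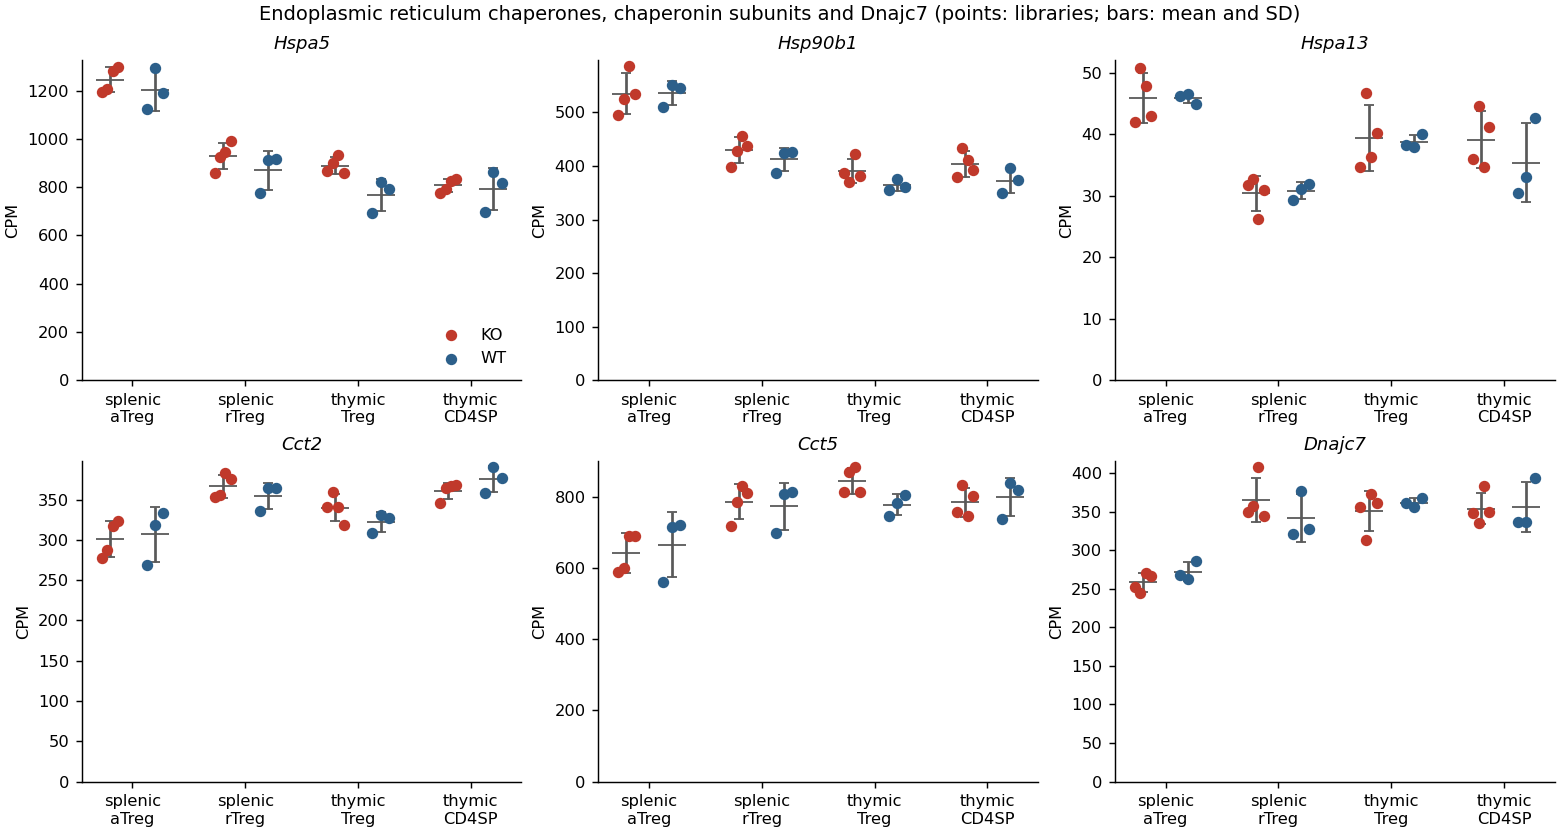
CPM per library of Hspa5, Hsp90b1, Hspa13, Cct2, Cct5 and Dnajc7 in the 4 populations, KO in red to the left of WT in blue, with the mean and SD of each group. The aTreg points lie above the rTreg points for the 3 ER chaperones (1125 to 1296 against 774 to 992 CPM for Hspa5) and below them for Cct2 and Dnajc7, while the WT points of Cct5 overlap.

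Among the cytosolic Hsp70 partners, Dnajc7, a J protein that binds Hsp70 and Hsp90 through TPR repeats, had 252, 244, 271 and 266 CPM in KO aTreg cells, against 349, 358, 407 and 345 CPM in KO rTreg cells (log2 fold change -0.50, SE 0.07, edgeR adjusted p = 1.08e-06). In WT it had 268, 262 and 286 CPM in aTreg cells, against 320, 377 and 327 CPM in rTreg cells (log2 fold change -0.33, edgeR adjusted p = 0.00144). Hspa4l, an Hsp110, rose, with 58.2, 53.5, 62.6 and 62.2 CPM in KO aTreg cells, against 38.4, 38.2, 52.6 and 47.1 CPM in KO rTreg cells (log2 fold change 0.42 in KO and 0.57 in WT, edgeR adjusted p = 0.00859 and 0.00273). Hspa2, an Hsp70 best known from the testis, had 8.45, 9.42, 8.10 and 9.61 CPM in KO aTreg cells, against 3.58, 3.75, 5.02 and 7.06 CPM in KO rTreg cells (log2 fold change 0.87, edgeR adjusted p = 0.0109). In WT the log2 fold change of Hspa2 was 1.10 (edgeR adjusted p = 0.00636), and 0.0505 was its adjusted p without aTreg library 2. Dnaja4 rose by 0.71 in KO and 0.54 in WT on the log2 scale; the WT call was lost without rTreg library 3, aTreg library 1 or aTreg library 2 (adjusted p = 0.0857, 0.0589 and 0.0655).

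Dnajb13 was at its highest in aTreg cells, with 31.9, 29.7, 29.1 and 27.5 CPM in KO aTreg cells, against 16.01, 16.1, 15.2 and 17.1 CPM in KO rTreg cells (log2 fold change 0.88, edgeR adjusted p = 1.18e-05). The WT libraries had 30.1, 27.6 and 30.4 CPM in aTreg cells, against 18.9, 14.9 and 12.4 CPM in rTreg cells (log2 fold change 0.93, edgeR adjusted p = 3.78e-05). Dnajb13 (chromosome 7, 100501716 to 100514960, minus strand, GRCm38) shares exon bases with Ucp2 on the other strand, and the sources used here do not say whether strand entered the counting. Group means of Ucp2 ranged from 810 to 987 CPM, a ratio of 1.22, beside 15.3 for Dnajb13. Ucp2 was itself higher in aTreg than in rTreg cells, by 0.21 in KO and 0.28 in WT on the log2 scale (edgeR adjusted p = 0.0337 and 0.0144). Its part in the Dnajb13 counts was not tested. Dnajc12 rose by 0.79 in KO (edgeR adjusted p = 2.32e-06) and by 0.38 in WT (adjusted p = 0.021), where the call was lost without rTreg library 1 or 3 or aTreg library 2 (adjusted p = 0.0627, 0.124 and 0.102).

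Of the 10 mitochondrial members, 0 were higher and 3 lower in KO and 0 higher and 2 lower in WT, close to the 19.9% and 18.1% of all genes called lower. Hspa9, the mitochondrial Hsp70, fell by 0.24 in KO and by 0.22 in WT on the log2 scale (edgeR adjusted p = 0.0104 and 0.0378). The KO call was lost without aTreg library 2 (adjusted p = 0.0548), and the WT call without rTreg library 2 or 3 or aTreg library 1 (adjusted p = 0.0767, 0.144 and 0.17). Dnajc11, a J protein of the mitochondrial contact site complex, fell in KO (31.6 ± 1.61 CPM in aTreg and 41.4 ± 5.36 CPM in rTreg cells, SD, n = 4 each; edgeR adjusted p = 0.00201). Hspbap1, named for binding the small heat shock protein Hspb1, fell in both genotypes (KO -0.34, adjusted p = 0.000924; WT -0.45, edgeR adjusted p = 0.000239), although Hspb1 itself did not exceed 1.25 CPM in any library. Hspb11, an intraflagellar transport protein that carries a small heat shock protein name, fell in WT (12.8, 14.7 and 17.6 CPM in aTreg cells, against 20.3, 22.0 and 19.7 CPM in rTreg cells; edgeR adjusted p = 0.00087). Dnajc5, the synaptic vesicle J protein, fell by 0.18 in KO and by 0.25 in WT, with the KO call lost without aTreg library 4 (adjusted p = 0.065) or rTreg library 4 (0.0502). Dnajc13 fell by 0.22 in WT (edgeR adjusted p = 0.00898), and Dnajc27 fell by 0.46 in WT (adjusted p = 0.0156), where the call was lost without rTreg library 3 or aTreg library 3 (0.0744 and 0.135).

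**Figure D4:**
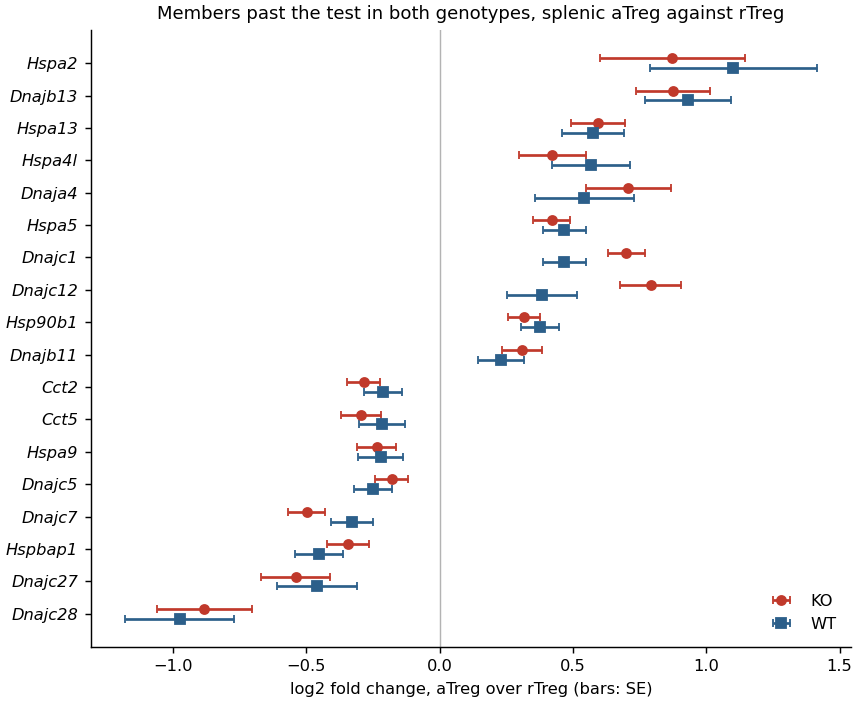
Log2 fold change of aTreg over rTreg cells with its standard error for the 18 members past the test in both genotypes, KO in red above WT in blue. The points lie on the same side of 0 in KO and WT for each member, between -0.98 for Dnajc28 and 1.10 for Hspa2, both in WT.

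Hspa8, Hsp90aa1, Hsp90ab1, Hspd1, Hspe1, Hsph1, Dnaja1 and Dnajb1 did not pass between aTreg and rTreg cells in either genotype. In KO the library numbers were taken as paired, from correlations of 0.12 to 0.23 and not from a label, and the next calls rest on that choice. With a block for the number Hspa8 (log2 fold change -0.23, edgeR adjusted p = 0.000748), Dnajb1 (-0.25, 0.00422) and Cct6a (-0.16, 0.0427) fell. Hsph1 (0.27, 0.000686), Hspa1a (0.68, 0.0211) and Hspa1b (0.51, 0.0345) rose, as did Dnajc10. These 7 were the calls gained and none was lost.

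Outside the rule, the ER folding and unfolded protein response list had 13 of 31 higher and 3 lower in KO and 12 higher and 2 lower in WT. Of all genes tested, 21.7% were higher and 19.9% lower in KO, and 19.9% and 18.1% in WT. In WT Pdia6, a disulfide isomerase, stood at 298 ± 17.2 CPM in aTreg and 221 ± 11.2 CPM in rTreg cells (SD, n = 3 each), and Calr, the lectin chaperone calreticulin, at 521 ± 11.5 and 408 ± 17.0 CPM. Trib3, a pseudokinase induced by the ER stress arm of Atf4, was lower at 2.94 ± 0.22 against 8.93 ± 1.14 CPM. Of the other cytosolic folding genes, 5 of 32 were higher and 4 lower in KO and 4 higher and 2 lower in WT, among them Bag3, an Hsp70 exchange factor (17.0 ± 5.49 CPM in WT aTreg and 5.17 ± 1.36 CPM in WT rTreg cells), Fkbp5, an Hsp90 cochaperone (log2 fold change 1.06), and Bag5 (-0.26). The mitochondrial list had 0 higher and 3 of 15 lower in KO and 0 higher and 2 lower in WT (Trap1 -0.30 and Yme1l1 -0.21 in WT).

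Several other programmes moved with this comparison. All 6 activated Treg markers were higher and all 6 resting T cell markers lower in aTreg cells of both genotypes, and 14 of 19 cell cycle genes in KO and 16 of 19 in WT were higher (Rrm2, Mki67 and Birc5 by 1.72, 1.82 and 1.64 on the log2 scale in WT). Myeloid markers summed to 206 to 236 CPM in KO aTreg cells and 104 to 127 CPM in KO rTreg cells, and to 286 to 341 and 119 to 122 CPM in WT. Immediate-early genes were called in both directions, with 4 of 18 higher and 5 lower in KO and 3 higher and 5 lower in WT (Gadd45b 1.39, Ier2 -0.44 and Atf3 3.55 in WT). Their part in the chaperone levels was not tested.

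The thymic comparison set Treg cells against CD4SP cells. In thymic Treg cells a few J proteins stood far from their CD4SP levels, while the abundant chaperones differed by modest amounts. In KO, 17 members were higher and 13 lower, 40% of the 75 beside 56.5% of all genes (30.0% higher and 26.5% lower). In WT, 9 were higher and 12 lower, 28% beside 48.3% (26.8% higher and 21.6% lower), and scaling by library totals gave 14 higher and 6 lower. In both genotypes 15 were called, all in the same direction (50% of KO and 71.4% of WT calls, against 71.0% and 82.9% over all genes tested).

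Dnajb13 had 13.4, 15.4, 14.3 and 13.8 CPM in KO thymic Treg cells, against 2.25, 2.49, 1.36 and 1.62 CPM in KO CD4SP cells (log2 fold change 2.89, SE 0.17, edgeR adjusted p = 1.2e-14). In WT it had 10.9, 9.42 and 8.32 CPM in thymic Treg cells, against 1.78, 3.15 and 1.85 CPM in CD4SP cells (log2 fold change 2.06, SE 0.19, edgeR adjusted p = 2.77e-10). The neighbouring Ucp2 changed by 0.00 in KO and -0.15 in WT. Dnajc12 (chromosome 10, 63382443 to 63410576, plus strand, GRCm38) had 27.9, 30.4, 27.0 and 23.8 CPM in KO thymic Treg cells, against 10.3, 10.6, 7.77 and 9.80 CPM in KO CD4SP cells, and 19.99, 20.7 and 22.6 CPM in WT thymic Treg cells, against 7.83, 8.22 and 7.35 CPM in WT CD4SP cells. Its log2 fold changes were 1.51 in KO and 1.43 in WT (edgeR adjusted p = 2.66e-12 and 2.44e-10). Dnajc3, whose promoter holds the ER stress element, ran in the opposite direction, with 105, 108, 108 and 104 CPM in KO thymic Treg cells, against 205, 186, 194 and 205 CPM in KO CD4SP cells (log2 fold change -0.89, SE 0.06, edgeR adjusted p = 2.9e-13). The WT libraries had 105, 115 and 114 CPM in thymic Treg cells, against 186, 207 and 198 CPM in CD4SP cells (log2 fold change -0.82, edgeR adjusted p = 5.23e-11). Thymic Treg and CD4SP libraries did not overlap for these 3 genes.

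Hsp90ab1 was higher in thymic Treg cells, with 1991, 1748, 1972 and 1941 CPM in KO, against 1264, 1405, 1470 and 1416 CPM in KO CD4SP cells (log2 fold change 0.46, edgeR adjusted p = 6.77e-06). In WT it had 1646, 1707 and 1863 CPM in thymic Treg cells, against 1420, 1556 and 1454 CPM in CD4SP cells (log2 fold change 0.24, edgeR adjusted p = 0.0256). The WT call was lost without thymic Treg library 3 or CD4SP library 1 or 3 (adjusted p = 0.132, 0.0901 and 0.0567). Hspa4l rose by 0.57 in both genotypes (edgeR adjusted p = 0.000388 in KO and 0.002 in WT), and Dnajc27, a small GTPase with a J domain, by 0.71 and 0.81. In KO, Hspa8 rose as well (955 ± 75.4 CPM in thymic Treg and 783 ± 73.5 CPM in CD4SP cells, SD, n = 4 each; edgeR adjusted p = 0.0303). That call was lost without KO thymic Treg library 2 or 3 or KO CD4SP library 1 or 2 (adjusted p = 0.0576, 0.0945, 0.107 and 0.052), and without the 3 libraries high in other cell markers (0.0559). Dnajb12, an ER membrane J protein, and Cct7 were also higher in KO (log2 fold changes 0.39 and 0.28, edgeR adjusted p = 0.00148 and 0.000164).

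Members lower in thymic Treg cells of both genotypes included Dnaja2, a main cytosolic J partner of Hspa8 (-0.24 in KO and -0.35 in WT), Hspb11 (-0.36 and -0.38), Dnajc19, a J protein of mitochondrial import (-0.38 and -0.35), and Dnajc17, a nuclear J protein (-0.37 and -0.40). Dnajb6, a J protein that holds aggregation-prone proteins, fell by 0.33 in KO (edgeR adjusted p = 0.000722), against 0.0578 without the 3 libraries high in other cell markers, and Dnajc10 fell by 0.33 in KO (adjusted p = 0.000623). Dnajc21, a J protein of ribosome assembly, fell by 0.31 in KO (edgeR adjusted p = 0.00615, and 0.128 without those 3 libraries). Hspbp1 had 33.7 ± 3.51 CPM in WT thymic Treg and 47.6 ± 3.23 CPM in WT CD4SP cells (SD, n = 3 each; log2 fold change -0.50, edgeR adjusted p = 0.000109), and Dnajb11 55.5 ± 2.11 and 75.1 ± 4.19 CPM (log2 fold change -0.44, edgeR adjusted p = 0.000107). Cct2 fell in WT (log2 fold change -0.22, edgeR adjusted p = 0.0117; 0.0669 without thymic Treg library 1 and 0.0657 without CD4SP library 2) and was at -0.09 in KO (adjusted p = 0.238). Of the other WT calls, that of Dnajb5 was lost without thymic Treg library 1 or 3 or CD4SP library 1 or 2 (adjusted p of 0.0944 to 0.134). That of Dnajc17 was lost without thymic Treg library 1 or 2 or CD4SP library 1 or 2 (0.0545 to 0.091), and that of Dnajc18 without library 1 or 3 of either population (0.0803 to 0.0955).

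The ER chaperones Hspa5 and Hsp90b1 did not pass here (log2 fold changes 0.14 and -0.05 in KO, and -0.05 and -0.03 in WT), and neither did Hsp90aa1, Hspe1, Hspa1a, Hspa1b, Hsph1, Dnaja1 or Dnajb1. Hspd1 rose in KO with overlapping libraries (175, 172, 215 and 174 CPM in thymic Treg cells, against 121, 181, 132 and 127 CPM in CD4SP cells; edgeR adjusted p = 0.0135, and 0.0631 without thymic Treg library 3 and 0.0546 without CD4SP library 1). In WT the library numbers were taken as paired, from correlations of 0.11 to 0.13 and not from a label, and the next calls rest on that choice. With a block for the number 8 more members passed and none was lost. Hspd1 (log2 fold change 0.34, edgeR adjusted p = 0.00739) and Hsph1 (0.29, 0.00104) rose. Dnaja1 (-0.28, 0.00293), Dnajb1 (-0.30, 0.00303) and Hspa1b (-1.45, 0.000915) fell, and the others were Dnajb12, Hspa12a and Hspb6.

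Among related genes, the cytosolic list had 8 of 32 higher and 9 lower in KO and 4 higher and 8 lower in WT. Of all genes tested, 30.0% were higher and 26.5% lower in KO, and 26.8% and 21.6% in WT. Hsf2, a heat shock factor, stood at 83.8 ± 3.01 CPM in WT thymic Treg and 38.0 ± 4.33 CPM in WT CD4SP cells (SD, n = 3 each), Bag3 at 5.13 ± 1.51 and 1.53 ± 0.44 CPM, and Bag5 at 54.5 ± 1.49 and 83.8 ± 0.90 CPM. The ER list had 13 of 31 higher and 5 lower in KO and 5 higher and 6 lower in WT, and its stress sensors split: Xbp1 and Atf6 rose by 0.76 and 0.94 in WT, while Eif2ak3, the kinase PERK, was at -0.80. Of the mitochondrial list, 1 of 15 was higher and 4 lower in KO and 0 higher and 5 lower in WT (Yme1l1 -0.30, Grpel1 -0.38 and Ppif -0.36). Beside these, cell cycle genes were mostly lower in thymic Treg cells (9 of 19 lower and 2 higher in KO, 14 lower and 0 higher in WT), 7 of 10 myeloid markers were higher in each genotype, and immediate-early genes were higher for 11 of 18 in KO and 9 in WT. Their part was not tested.

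The rTreg cells of the spleen were compared with thymic Treg cells, which is also a comparison of organs. In KO, 13 members were higher and 8 lower, 28% of the 75 beside 42.9% of all genes (19.6% higher and 23.3% lower). In WT, 12 were higher and 6 lower, 24% beside 30.6% (13.9% higher and 16.7% lower), while scaling by library totals alone gave 6 higher and 7 lower. In both genotypes 14 were called in the same direction (66.7% of KO and 77.8% of WT calls, against 55.9% and 78.4% over all genes tested). Without WT thymic Treg library 1 the WT calls numbered 10.

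Dnajb1 had 195, 164, 266 and 295 CPM in KO rTreg cells, against 106, 89.7, 140 and 119 CPM in KO thymic Treg cells (log2 fold change 1.02, SE 0.17, edgeR adjusted p = 1.97e-05). The WT libraries had 158, 185 and 213 CPM in rTreg cells, against 98.4, 133 and 141 CPM in thymic Treg cells (log2 fold change 0.58, SE 0.19, edgeR adjusted p = 0.0217), and the adjusted p was 0.124 without thymic Treg library 1 and 0.0987 without rTreg library 3. The rTreg libraries lay above the thymic ones in both genotypes. Dnajb9, a BiP partner induced by the unfolded protein response, had 28.6, 24.1, 23.5 and 28.1 CPM in KO rTreg cells, against 17.3, 18.8, 19.6 and 14.2 CPM in KO thymic Treg cells (log2 fold change 0.58, edgeR adjusted p = 0.000223). In WT it had 30.04, 23.9 and 32.3 CPM in rTreg cells, against 16.4, 20.3 and 15.1 CPM in thymic Treg cells (log2 fold change 0.74, edgeR adjusted p = 0.000111). Hspa1a rose in KO with overlapping libraries (log2 fold change 2.76, SE 0.89, edgeR adjusted p = 0.0134). The call was lost without KO rTreg library 4 (adjusted p = 0.0934) and without the 3 libraries high in other cell markers (0.123). Its WT log2 fold change was 1.83 (adjusted p = 0.334), and Hspa1b did not pass. Hsp90aa1 rose in KO, also with overlap (143 ± 20.3 CPM in rTreg and 109 ± 13.9 CPM in thymic Treg cells, SD, n = 4 each; edgeR adjusted p = 0.0221), and was not called without KO thymic Treg library 1 or KO rTreg library 3 or 4 (0.0557 to 0.0949) or without those 3 libraries (0.118).

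Dnajc12 was low in rTreg cells, with 7.63, 7.13, 8.19 and 6.93 CPM in KO, against 27.9, 30.4, 27.0 and 23.8 CPM in KO thymic Treg cells (log2 fold change -1.87, SE 0.11, edgeR adjusted p = 5.53e-13). The WT libraries had 7.87, 9.27 and 7.05 CPM in rTreg cells, against 19.99, 20.7 and 22.6 CPM in thymic Treg cells (log2 fold change -1.39, edgeR adjusted p = 3.08e-09). Over the 4 populations Dnajc12 was therefore highest in thymic Treg cells, then aTreg cells, with CD4SP and rTreg cells lowest; CD4SP and rTreg libraries overlapped in both genotypes. Dnajb13 instead was highest in aTreg and lowest in CD4SP cells, with rTreg and thymic Treg cells between them. It rose by 0.69 in WT rTreg over thymic Treg cells (edgeR adjusted p = 0.00213), while the KO libraries of these populations overlapped.

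Hspa4, an Hsp110, rose by 0.38 in KO and 0.31 in WT, and Dnajb4, a cytosolic J protein, by 0.46 and 0.29; without WT thymic Treg library 1 the WT adjusted p was 0.0587 for Hspa4 and 0.2 for Dnajb4, and without WT rTreg library 3 it was 0.0961 and 0.206. Hspa4 was also lost without WT thymic Treg library 2 (0.0655). Dnaja3, the mitochondrial J partner of Hspa9, rose by 0.30 in WT (edgeR adjusted p = 0.0165, with 0.102 without thymic Treg library 1 and 0.0539 without rTreg library 2). Dnajc15, a J protein of mitochondrial import, rose in WT (59.2, 60.5 and 55.3 CPM in rTreg cells, against 39.2, 39.1 and 44.5 CPM in thymic Treg cells; edgeR adjusted p = 0.00116), as did Hspbp1 (log2 fold change 0.39, edgeR adjusted p = 0.00341) and, by 0.18, Hsp90b1 (adjusted p = 0.0489). The Hsp90b1 call was lost without any WT library but rTreg library 1 (0.054 to 0.138). Dnajc3 rose by 0.37 in KO (edgeR adjusted p = 1.65e-05) and Dnajc21 by 0.35 (adjusted p = 0.00356). Lower in rTreg cells of both genotypes were Hspa4l (-0.45 in KO and -0.60 in WT), Dnajc10 (-0.39 and -0.42), Hspb11 (-0.64 and -0.34) and Hspa13 (-0.37 and -0.33); the WT call of Hspa13 was lost without any 1 of the 6 WT libraries (adjusted p of 0.0527 to 0.113), and that of Hspb11 without rTreg library 3 (0.051). In KO Dnajc8 was lower too (log2 fold change -0.33, edgeR adjusted p = 0.000899, and 0.0593 without the libraries high in other cell markers). Hspa8, Hspa5, Hsp90ab1, Hspd1, Hspe1, Hsph1, Dnaja1 and Cct2 did not pass in either genotype.

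**Figure D5:**
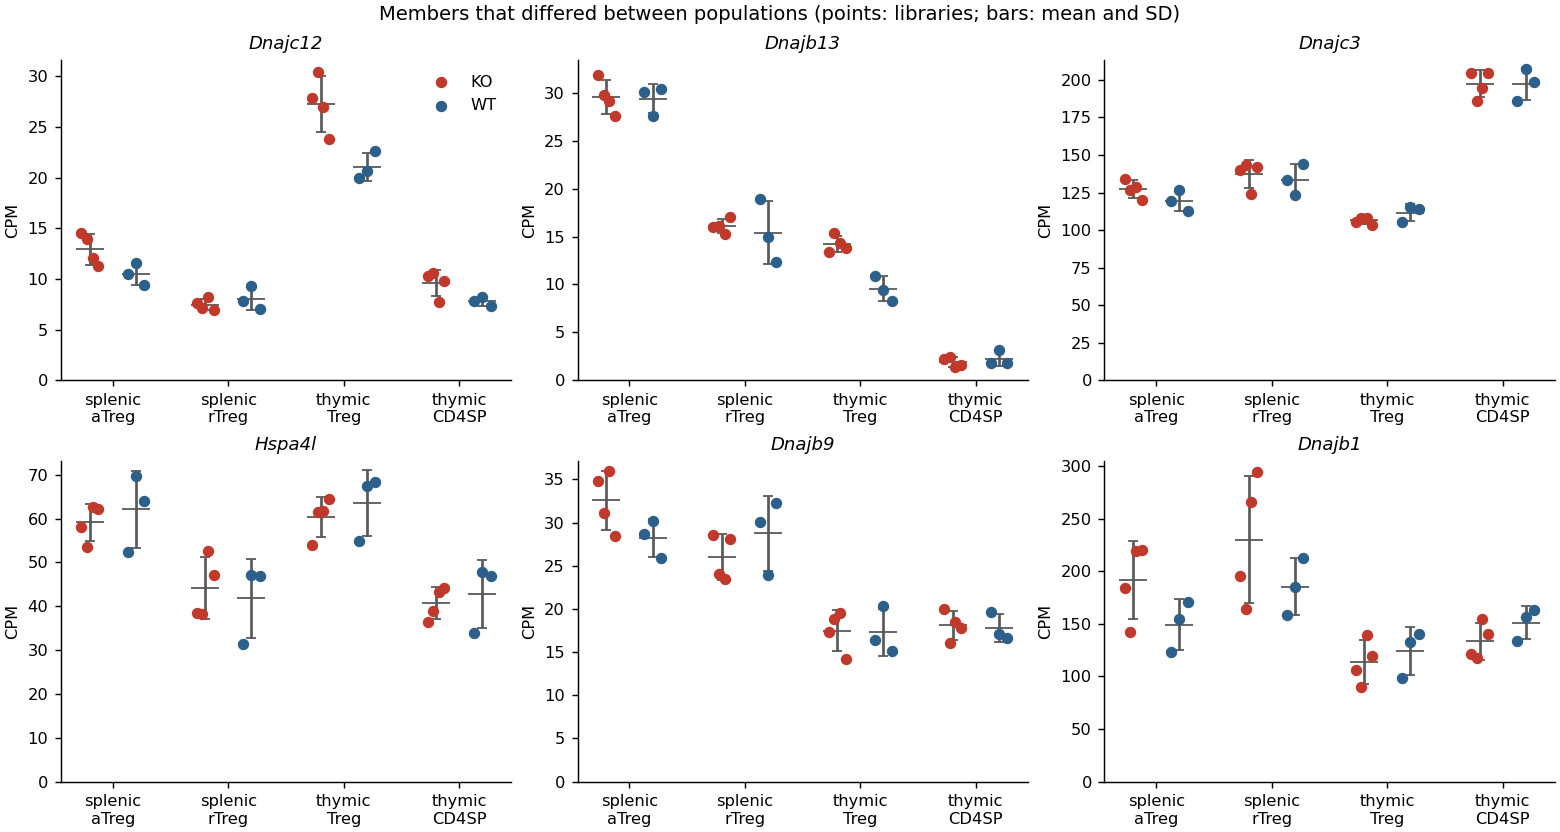
CPM per library of Dnajc12, Dnajb13, Dnajc3, Hspa4l, Dnajb9 and Dnajb1 in the 4 populations, KO in red to the left of WT in blue. Dnajc12 peaks in thymic Treg cells at 19.99 to 30.4 CPM, Dnajb13 in aTreg cells at 27.5 to 31.9 CPM and Dnajc3 in CD4SP cells at 186 to 207 CPM, while Dnajb1 and Dnajb9 lie higher in rTreg than in thymic Treg cells.

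Handling-related genes also differed in this comparison. Of the 18 immediate-early genes, 12 were higher and 1 lower in KO rTreg cells and 13 higher and 2 lower in WT, with median log2 fold changes of 1.81 and 1.73. In WT Ppp1r15a, a stress-induced phosphatase subunit, stood at 355 ± 24.4 CPM in rTreg and 40.4 ± 1.39 CPM in thymic Treg cells (SD, n = 3 each), Socs3 at 102 ± 4.79 and 23.5 ± 1.14 CPM, and Klf6 at 376 ± 29.98 and 133 ± 1.38 CPM. The summed level of the list did not overlap between spleen (2642 to 4623 CPM) and thymus (1034 to 1349 CPM), and with it as a covariate 0 members passed between rTreg and thymic Treg cells in either genotype; organ and handling cannot be told apart here. Among related genes, the cytosolic list had 2 of 32 higher and 5 lower in KO and 3 higher and 2 lower in WT (Hsf2 -0.76, Bag5 0.32 and Bag2 -1.35 in WT). Of all genes tested, 19.6% were higher and 23.3% lower in KO, and 13.9% and 16.7% in WT. The ER list had 3 of 31 higher and 7 lower in KO and 5 higher and 2 lower in WT, with Atf4 at 168 ± 6.68 CPM in WT rTreg and 113 ± 6.55 CPM in WT thymic Treg cells, Vimp at 0.32 and Edem1 at 0.36 on the log2 scale. The mitochondrial list had 4 of 15 higher and 1 lower in KO and 3 higher and 0 lower in WT (Trap1 0.28, Tomm34 0.28 and Yme1l1 0.16). Cell cycle genes were lower in rTreg cells, 17 of 19 in KO and 11 in WT.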

How the data were processed

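The authors deposited raw read counts per gene for 28 libraries. RNA was amplified with SMART and sequenced paired end on a HiSeq, per the labels' protocols; Trimmomatic, STAR, HTSeq and mm10 are named in the submitters' processing notes, with versions, annotation and strand setting not given in the sources used here. Lines for reads in no gene (42.3 to 49.7% of reads outside the multi-mapped line) stayed out of library sizes and tests. Unique counting leaves out reads that fit near-identical genes. Counts were scaled by TMM (factors 0.970 to 1.04) and tested with edgeR 4.0.16 in R 4.3.3 (quasi-likelihood, filterByExpr, all 28 libraries in 1 fit, 20 residual degrees of freedom), with Benjamini-Hochberg adjustment over 13338 genes and a threshold of 0.05. The steps were tested on simulated data. DESeq2 1.42.0, other scalings and filters, single libraries left out, covariates and replicate blocks were the alternatives. Exon lengths came from GENCODE release 21 on GRCm38 and promoters from RefSeq on GRCm38.p6.

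The members and lists were chosen with earlier results of these data known. The text names 13 core members in each comparison, the members past the test between genotypes (or the 3 with the smallest p), and up to 8 rises and 8 falls between populations among members with at least 8 CPM and no overlap; values of others were chosen after they were seen. Same-numbered libraries were checked for deviations that correlate: every pair exceeded 0.1 only for thymic Treg against CD4SP cells in WT (3 pairs, 0.107 to 0.132) and aTreg against rTreg cells in KO (4 pairs, 0.121 to 0.232), which were taken as paired by this correlation and not by a label. No replicate pair agreed within sampling noise (chi-square per degree of freedom 7.08 to 37.6). Exons of 29 members overlap a gene on the other strand, so their counts are uncertain; among those described are Dnajb13, Dnajc1, Dnajc7, Dnajc17, Dnajc19, Dnaja1, Dnaja4, Cct6a, Cct7, Hspd1 and Hspe1.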

Additional observations from a re-analysis of the deposited data

Results flagged for a closer look

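In 7 of 196 groups of 4 KO libraries, covering 49 named members, 1 library lay far from the other 3 by Dixon's criterion, which chance meets in about 1 of 20 groups. Dnajb11 had 73.5 CPM in KO thymic Treg library 3, against 60.4 to 62.3 CPM in the other 3, and Hspd1 had 215 CPM in the same library, against 172 to 175 CPM. In KO CD4SP library 2, which is high in other cell markers, Hsp90aa1 had 141 CPM against 94.2 to 100.7 CPM in the others, and Dnajc18 45.1 CPM against 49.3 to 50.05 CPM. Dnajc27 had 11.8 CPM in KO aTreg library 1, against 7.08 to 7.61 CPM in the others. Dnajc13 had 47.1 CPM in KO aTreg library 4, against 44.0 to 44.5 CPM. Dnajc3 had 124 CPM in KO rTreg library 3, against 140 to 143 CPM.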

How the results depend on the processing

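Over all results and settings, 4550 values kept their direction and side of the threshold, 111 passed it newly, 174 no longer passed it and 12 turned round. Members past the test in KO against WT thymic Treg cells numbered 5, against 11 by DESeq2, 10 with a replicate block, 0 with the no-gene share of reads as covariate, 1 without KO CD4SP library 2 and KO thymic Treg libraries 1 and 2 (an alternative chosen after seeing the data), and 1 to 7 with single libraries left out. In the other 3 populations the count was 0, with 0 to 0 on leaving out a library and 2 each (Hspa1a and Hspa1b) with a replicate block; over the 4 populations the blocked adjusted p of these genes was 0.000576 to 0.00859. The genotypes share only a number, and the correlation rule did not pair them. Over the 4 populations the KO library exceeded the same-numbered WT library in 12 of 12 pairs for both genes. In aTreg, rTreg and thymic Treg cells this followed from all KO libraries lying above all WT libraries, and the library order recurred across populations. It held in 5, 6 and 4 of 12 pairs for Dnajb1, Hsph1 and Dnaja1. For aTreg against rTreg cells the leave-one-out counts were 22 to 25 in KO and 17 to 22 in WT, and 14 in WT with only the groups compared in the fit. For rTreg against thymic Treg cells they were 14 to 20 in KO and 10 to 20 in WT; in KO 13 passed without the 3 libraries named above and 11 with the no-gene covariate, and in both genotypes 0 passed with the handling stress covariate. For thymic Treg against CD4SP cells they were 25 to 30 in KO and 16 to 19 in WT. With a replicate block over all libraries the counts were 29 and 26 for aTreg against rTreg, 25 and 24 for rTreg against thymic Treg, and 38 and 28 for thymic Treg against CD4SP cells in KO and WT. Differences of KO effects gave 0 to 0 calls, except 2 by DESeq2 and 0 to 1 with a library left out for thymic Treg against CD4SP cells.

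With the handling stress covariate, whose level does not overlap between spleen and thymus, log2 fold changes of rTreg over thymic Treg cells turned round in KO for Dnajb1 (-1.47), Dnajb4 (-0.29), Dnajc10 (0.24), Hspa13 (0.54) and Hspa1a (-8.48), and in WT for Dnaja3 (-0.24), Dnajb1 (-1.47), Dnajb4 (-0.33), Dnajc10 (0.11), Hspa13 (0.43) and Hspb11 (0.072). With the no-gene covariate Dnajc8 turned round in KO (0.093). The cause was not tested.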
